A study of Bos taurus with 24 samples.

Results

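The microRNAs (miRNAs) miR-500, miR-502a, miR-502b, miR-532, miR-660, miR-362-5p, miR-362-3p and miR-188 are encoded together on the bovine X chromosome, and their levels were followed here in mammary biopsies of Holstein (HOLS) and Montbéliarde (MONT) cows sampled ahead of a feed restriction and again when it ended. The members were taken as the table rows named exactly bta-miR-500, bta-miR-502a, bta-miR-502b, bta-miR-532, bta-miR-660, bta-miR-362-5p, bta-miR-362-3p and bta-miR-188, which are 8 of the 796 miRNAs listed over both breeds. The set was chosen by miR-500, a miRNA on the study's list of miRNAs changed by restriction in HOLS, so every comparison of miR-500 that uses HOLS libraries, between breeds too, is a description here and carries no test. The question was whether the other members followed miR-500.

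The study took biopsies from multiparous midlactation cows at day 0, on feed offered ad libitum (CONT), and at day 6 of feed restriction (REST), with the site alternating between the rear glands of the udder. Small RNA libraries were available for 5 HOLS and 6 MONT cows, 1 library per cow and period, which gave 5 HOLS CONT, 5 HOLS REST, 6 MONT CONT and 6 MONT REST libraries, 22 in all. All cows were restricted, so period and restriction cannot be told apart, and no unrestricted cow was sampled at day 6. A biopsy holds epithelium, vessels, blood and connective tissue together, so that fewer cells of a type and less miRNA per cell cannot be told apart.

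A miRNA is cut from a hairpin in a longer transcript and represses mRNAs that pair with its 5′ end, the seed. Neighbouring hairpins can be cut from 1 transcript, and each hairpin can release a miRNA from its 5′ arm, its 3′ arm or both, but the mature miRNAs then differ in processing and stability. The cluster lies within CLCN5, the gene of a chloride/proton exchanger of endosomes, in cattle as in other mammals. In the RefSeq annotation of ARS-UCD2.0, which is not the build the study used, the miRNA genes within CLCN5 stood in the order MIR532, MIR188, MIR502A-2, MIR502B, MIR362, MIR500, MIR660 and MIR502A-1. The 8 genes do not match the 8 miRNAs one to one, because miR-502a has 2 genes and both miR-362 arms come from 1 gene. Outside cattle, miR-532 has been studied as a repressor of RUNX3, miR-660 of MDM2, miR-362 of CYLD and miR-502 of the histone methyltransferase KMT5A, and miR-188 as a regulator of bone and fat cell formation in marrow. The 5′ arms of miR-500, miR-502 and miR-362 are closely related in sequence, and how reads that fit more than 1 of them were counted is not given in the sources used here.

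Library totals ranged from 7431936 to 18149037 counts in HOLS and from 6087865 to 18913916 in MONT. Levels are given as CPM, the count of a miRNA in each 1000000 counts of its library, with library sizes scaled by the trimmed mean of M values (TMM) over the 22 libraries. Each library was compared with its group mean, and the deviations in CONT and in REST correlated within a cow across miRNAs at 0.300 to 0.532 in the 5 HOLS cows and at 0.428 to 0.761 in 4 MONT cows. They correlated at only 0.0322 in MONT cow 2614 and at -0.334 in MONT cow 9615, and results that rest on these cows are also given without them. The defining miRNAs of epithelium (the miR-200 and miR-183 families and miR-205) were all detected, and so were those of leukocytes, red blood cells and endothelium and 3 of the 4 listed for muscle.

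Levels within the cluster were very unequal. miR-660 averaged 2609 CPM over the 22 libraries and ranked 35 of 796 miRNAs, and miR-532 averaged 366 CPM at rank 76. Together they held nearly all counts of the cluster, miR-660 with 86.6% and miR-532 with 12.1%. miR-362-3p averaged 12.2 CPM, miR-362-5p 9.25 CPM and miR-500 9.06 CPM, with ranks of 202, 215 and 219. These 3 lay close to each other and their order changed between groups. miR-502a averaged 3.30 CPM and miR-188 3.20 CPM, and miR-502b 0.352 CPM. CPM is not divided by length, and ligation efficiency differs between miRNAs, so this is an order of reads rather than of molecules.

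The counts behind these levels set how firmly each member can be read. miR-660 had 12369 to 49450 counts per library and miR-532 1960 to 6864. miR-500 had 45 to 248, miR-362-5p 38 to 269 and miR-362-3p 51 to 244. miR-502a had 16 to 75 counts, miR-188 13 to 94 and miR-502b 1 to 11. The last of these failed the filter on low counts in every comparison, so 7 of the 8 members were tested and miR-502b is described only.

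**Figure D1:**
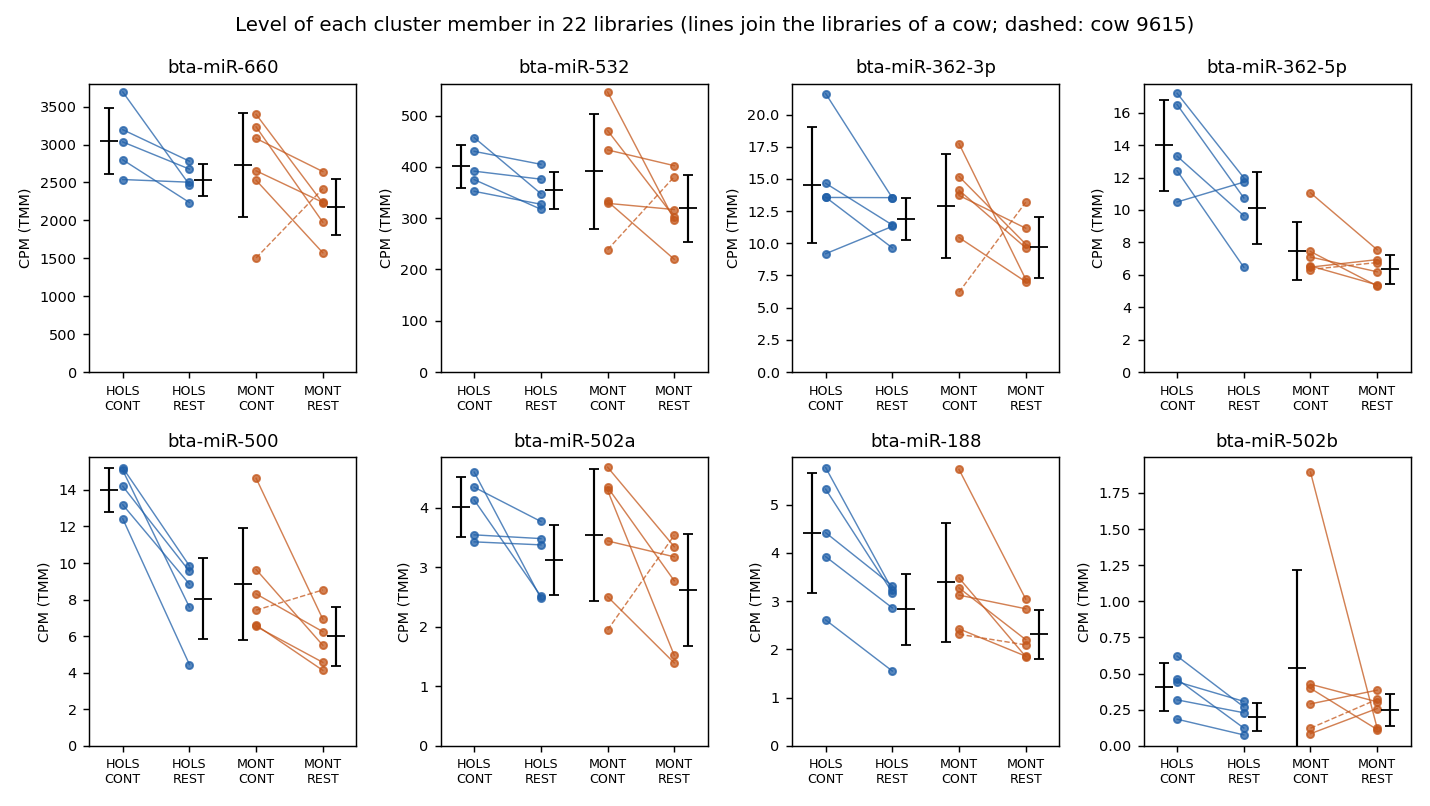
Level in CPM (TMM) of each of the 8 members in every library, by breed and period, with a linear axis from 0 in each panel. Points of a cow are joined, the line of cow 9615 is dashed, and black bars give the mean and SD of the 5 or 6 libraries of a group (the bar of miR-502b in MONT CONT is cut at 0). Most lines fall from CONT to REST in both breeds, and the dashed line rises for 6 of the 7 members that passed the filter.

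The first comparison was REST against CONT in HOLS. All 7 members that passed the filter had a lower fitted level in REST, with log2 fold changes from -0.74 for miR-500 to -0.12 for miR-532 and a median of -0.30. The median over all miRNAs tested in HOLS was 0.02, and 46.5% of them were lower in REST. Of the 6 members other than miR-500, 0 passed an adjusted p of 0.05 in the quasi-likelihood test of edgeR (Benjamini-Hochberg) (adjusted p from 0.183 to 0.617), where 2.41% of all miRNAs passed. At an unadjusted p under 0.05, miR-188 and miR-362-5p passed, 2 of 6, against 23.3% of all miRNAs. DESeq2 also called 0 of the 6, where it called 26 of 476 over all miRNAs. With the cow as a block, edgeR's test called 1 of the 6, miR-188 (adjusted p from 0.0371 to 0.402 over the 6). In that fit 16.3% of all miRNAs were called.

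miR-500, the member that chose the set, had 13.2, 15.1, 12.4, 14.2 and 15.2 CPM in CONT in HOLS cows 1155, 1165, 2182, 8200 and 9195. In REST it had 8.85, 7.58, 4.45, 9.55 and 9.85 CPM in the same order. Every REST library lay below every CONT library, with group means of 14.0 ± 1.21 CPM (SD, n = 5) in CONT and 8.05 ± 2.20 CPM in REST. Its periods did not overlap, as for 7.75% of all miRNAs tested in HOLS, and no other member that passed the filter was separated in this way. The log2 fold change was -0.74 ± 0.19 (SE), a fold of 0.598, and is given without a test. Cow 2182 had the lowest level of both periods and, at -1.30 on the log2(CPM + 1) scale, the lowest change of the 5 cows.

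miR-188 was the member nearest to miR-500 in the size of its change. It had 4.42, 5.32, 2.61, 3.92 and 5.77 CPM in CONT and 3.32, 3.18, 1.55, 2.86 and 3.23 CPM in REST, in the same order of cows. It was lower in REST in each of the 5 cows, but the groups overlapped because cow 2182 was lowest in both periods. The log2 fold change was -0.61 ± 0.25 (SE), with an adjusted p of 0.183 by edgeR's quasi-likelihood test. With the cow as a block, since the 2 libraries of a number came from 1 animal, it was -0.57 ± 0.16 with an adjusted p of 0.0371, so miR-188 fell in the paired fit. That was 1 call among the 6 members, where 16.3% of all miRNAs were called in the same fit. DESeq2 with the same block gave an adjusted p of 0.113.

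The arms of miR-362 were less regular. miR-362-5p, the 5′ arm, had 13.3, 17.2, 12.4, 10.5 and 16.5 CPM in CONT and 9.64, 12.0, 6.47, 11.7 and 10.7 CPM in REST. It was lower in REST in 4 of 5 cows and higher in cow 8200, and its log2 fold change was -0.42 ± 0.19 (adjusted p = 0.207, or 0.0711 blocked by cow). miR-362-3p, the 3′ arm of the same hairpin, had 13.6, 21.6, 9.19, 13.6 and 14.7 CPM in CONT and 9.64, 13.5, 11.3, 13.5 and 11.4 CPM in REST. The high CONT value belonged to cow 1165, and cow 2182 was higher in REST, where its 5′ arm was lower. The log2 fold change of miR-362-3p was -0.24 ± 0.19, with an adjusted p of 0.506.

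The abundant members changed least. miR-660 had 2538, 3693, 3196, 2798 and 3034 CPM in CONT and 2503, 2469, 2780, 2235 and 2676 CPM in REST, a log2 fold change of -0.21 ± 0.12 with an adjusted p of 0.308. miR-532 had 352, 457, 430, 375 and 392 CPM in CONT and 327, 348, 405, 317 and 376 CPM in REST, a log2 fold change of -0.12 ± 0.12 with an adjusted p of 0.617. Both were lower in REST in each of the 5 cows, and both had groups that overlapped. miR-502a had 3.43, 3.55, 4.35, 4.13 and 4.60 CPM in CONT and 3.38, 3.48, 3.77, 2.52 and 2.48 CPM in REST. It was lower in each cow as well, by a margin within counting error in cows 1155 and 1165, and its log2 fold change was -0.30 ± 0.18 with an adjusted p of 0.307. miR-502b had 3 to 7 counts per library in CONT and 1 to 4 in REST, too few to read.

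As a description, the level of miR-500 relative to each other member was followed within libraries. The log2 ratio of miR-500 to miR-532 was lower in REST by 0.33 to 1.39 in the 5 HOLS cows, with a mean difference of -0.67 ± 0.41 (SD). Against miR-660 the mean difference was -0.58 ± 0.40, and it was lower in 5 of 5 cows too. Against miR-362-3p it was -0.60 ± 0.67 and against miR-362-5p -0.37 ± 0.30, both lower in 5 of 5 cows. miR-500 was selected on its lower level in these same REST libraries, which favours lower ratios, so nothing is read from them. Against miR-502a the difference was -0.48 ± 0.66, lower in 3 of 5 cows, and against miR-188 it was -0.21 ± 0.33, lower in 4 of 5.

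The second comparison, REST against CONT in MONT, was not used to choose the members, and here miR-500 was tested as well. All 7 members were again lower in REST, with log2 fold changes from -0.58 for miR-500 to -0.25 for miR-362-5p and a median of -0.43, beside -0.01 for all 349 miRNAs tested, of which 51.0% were lower. Of the 7, 0 passed an adjusted p of 0.05 in the quasi-likelihood test of edgeR (Benjamini-Hochberg) (adjusted p from 0.355 to 0.528), and 0% of all miRNAs did. At an unadjusted p under 0.05, miR-500 and miR-188 passed, 2 of 7, against 13.5% of all miRNAs. DESeq2 and the fit blocked by cow also called 0 of the 7. Over all miRNAs they called 0 of 759 and 0 of 349.

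In MONT CONT, miR-500 had 6.53 CPM in the lowest, 7.87 CPM in the median and 14.6 CPM in the highest of 6 libraries, and in MONT REST 4.13, 5.87 and 8.53 CPM. The groups overlapped, since the highest REST library, of cow 9615, lay above 4 of the CONT libraries. The group means were 8.86 ± 3.06 CPM (SD, n = 6) and 5.98 ± 1.62 CPM, and the log2 fold change was -0.58 ± 0.26 (SE) with an adjusted p of 0.355. The periods of 0.287% of all miRNAs tested in MONT did not overlap, and no member that passed the filter was among them.

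miR-188 had 2.31, 3.20 and 5.73 CPM as lowest, median and highest of the MONT CONT libraries and 1.85, 2.15 and 3.04 CPM of the REST libraries. It was the only member lower in REST in 6 of 6 MONT cows, and its log2 fold change was -0.56 ± 0.26 (adjusted p = 0.362). In cow 9615 the margin was within counting error, with 19 counts in CONT and 13 in REST (2.31 and 2.09 CPM). miR-502a had 1.95, 3.87 and 4.68 CPM in CONT and 1.39, 2.98 and 3.54 CPM in REST, and was lower in 5 of 6 cows with a log2 fold change of -0.47 ± 0.31 (adjusted p = 0.448).

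miR-362-3p had 6.21, 13.9 and 17.7 CPM in MONT CONT and 7.02, 9.80 and 13.2 CPM in REST, and its log2 fold change was -0.43 ± 0.27 (adjusted p = 0.438). miR-362-5p moved least in this breed. It had 6.33, 6.82 and 11.1 CPM in CONT and 5.31, 6.47 and 7.55 CPM in REST, was lower in 4 of 6 cows, and had a log2 fold change of -0.25 ± 0.20 (adjusted p = 0.528). miR-660 had 1505, 2867 and 3397 CPM in CONT and 1573, 2232 and 2643 CPM in REST, and miR-532 had 238, 383 and 546 CPM in CONT and 220, 309 and 402 CPM in REST. Both were lower in 5 of 6 cows, with log2 fold changes of -0.34 ± 0.20 (adjusted p = 0.437) and -0.30 ± 0.21 (adjusted p = 0.455). miR-502b had 1 to 11 counts in CONT and 1 to 5 in REST.

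**Figure D2:**
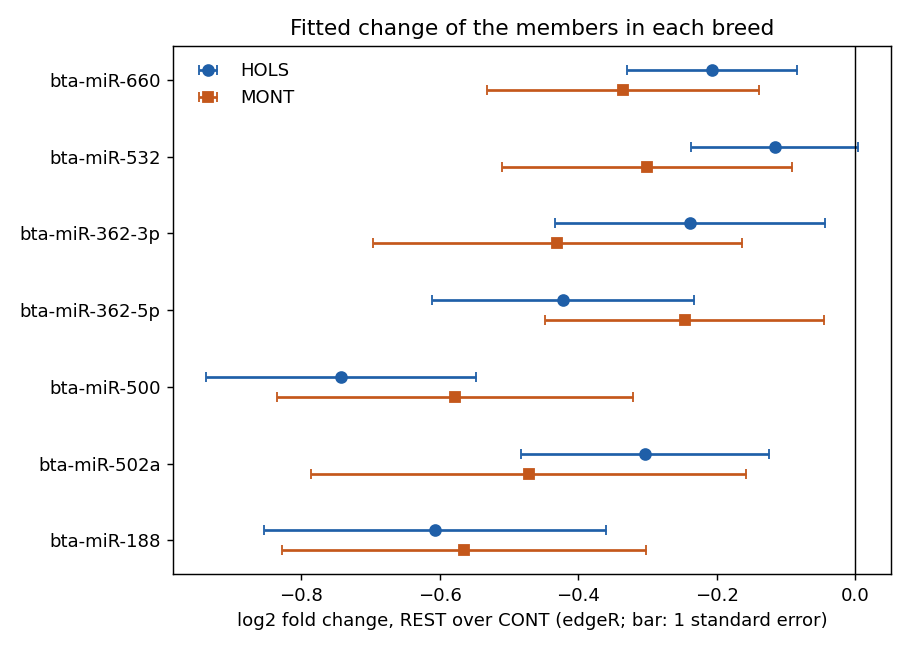
Log2 fold change of REST over CONT for the 7 members tested, from edgeR's fit in HOLS (circles) and MONT (squares), with bars of 1 standard error. All 14 values lie below 0, from -0.74 for miR-500 in HOLS to -0.12 for miR-532 in HOLS, and the bars of the breeds overlap for every member.

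Cow 9615 went the other way from the rest of the breed. Its miR-660 was 1505 CPM in CONT, the lowest of all 22 libraries, and 2417 CPM in REST. miR-532 went from 238 to 381 CPM, miR-362-3p from 6.21 to 13.2 CPM, miR-502a from 1.95 to 3.54 CPM and miR-500 from 7.42 to 8.53 CPM in this cow. For miR-500, with 61 counts in CONT and 53 in REST, the margin was within counting error. Of its 7 members tested only miR-188 was lower in REST, with 2.31 CPM in CONT and 2.09 in REST, while over all 388 miRNAs 50.8% were lower. In each of the other 5 MONT cows and of the 5 HOLS cows 6 or 7 of the 7 members were lower, where the share of all miRNAs that were lower was 46.6% to 66.8% over these 10 cows.

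Without cow 9615, 2 members were called in MONT in the quasi-likelihood test of edgeR (Benjamini-Hochberg), where 12.8% of all miRNAs were called. miR-660 fell by 0.50 ± 0.14 on the log2 scale (adjusted p = 0.0391) and miR-362-3p by 0.68 ± 0.20 (adjusted p = 0.0473). miR-500 was at -0.75 with an adjusted p of 0.0632, and the adjusted p of the other 4 members lay between 0.0839 and 0.301. Cow 2614, the other cow whose libraries did not deviate together, moved the values the opposite way. Without it edgeR called 0 of 7 members, and 0 of all 350 miRNAs tested. In that edgeR fit miR-500 was at -0.37 ± 0.23 and miR-188 at -0.39 ± 0.22 (both adjusted p = 0.869), and the other 5 members were closer to 0. miR-502a was then at -0.23, miR-660 at -0.21, miR-362-3p at -0.19, and miR-532 and miR-362-5p both at -0.11 (adjusted p from 0.874 to 0.919). All 7 stayed lower in REST without either cow, but the size of the change in MONT, and the calls, depended on single cows, and why their libraries stood apart was not tested.

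**Figure D3:**
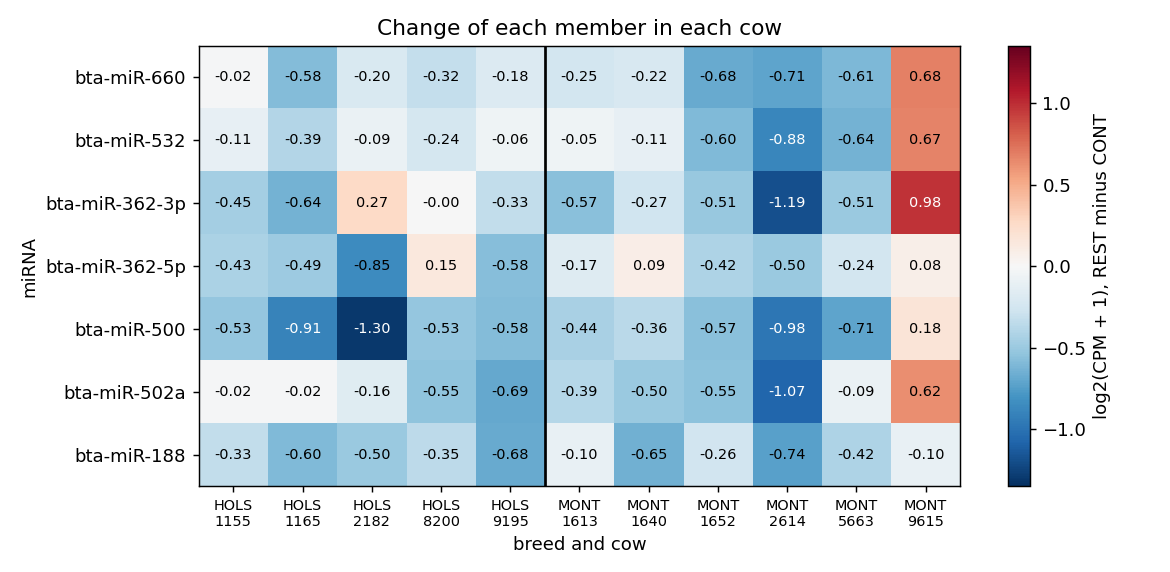
Difference of log2(CPM + 1), REST minus CONT, for each of the 7 members (rows) in each of the 11 cows (columns, HOLS left of the line and MONT right of it), with the value printed in each cell, blue for lower and red for higher in REST. Cow 9615 is red for 6 of 7 members, with its largest value of 0.98 for miR-362-3p, and cow 2182 has the lowest value, -1.30 for miR-500.

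The members did not all share the sign of miR-500 in each cow. In MONT, miR-660, miR-532, miR-502a and miR-362-3p had the sign of miR-500 in 6 of 6 cows, cow 9615 included, and miR-362-5p and miR-188 in 5 of 6. In cow 9615 the sign of miR-500 rests on 61 counts in CONT and 53 in REST, a margin within counting error. The share of all miRNAs with the sign of miR-500 was not computed, so nothing is read from these counts of cows. In HOLS, miR-660, miR-532, miR-502a and miR-188 had it in 5 of 5 cows and the arms of miR-362 in 4 of 5. miR-500 was selected on its lower level in HOLS REST and was lower in all 5 HOLS cows. The shared sign there therefore only counts the cows in which a member was lower, and nothing is read from it. For miR-362-3p, 1 of these cows, 8200, had a change of only -0.0015.

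Whether miR-500 changed by another amount than its neighbours was tested in MONT by an exact permutation test (two-sided) of the log2 ratio of miR-500 to each of 6 members. The mean difference, REST minus CONT, was -0.28 ± 0.16 (SD, n = 6) against miR-532, with a lower ratio in 6 of 6 cows, and it was -0.32 ± 0.25 against miR-362-5p and -0.25 ± 0.17 against miR-660, each lower in 5 of 6 cows. Against miR-362-3p it was -0.17 ± 0.38, against miR-502a -0.09 ± 0.46 and against miR-188 -0.04 ± 0.35. After Benjamini-Hochberg adjustment over the 6 ratios, 0 passed the threshold of 0.05 in the exact permutation test (p from 0.0758 to 0.838, adjusted p from 0.364 to 0.838). Permuting signs within cows, an exact test whose smallest p with 6 cows is 0.03125, gave that smallest p for miR-532 and, after adjustment, 0.125 for miR-532, miR-660 and miR-362-5p. With this floor a single ratio cannot pass after adjustment over 6, so the paired test could not have called 1 ratio alone, whatever its size.

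The test of the difference itself, the breed by period interaction, gave 0 calls among the 6 members other than miR-500 (each adjusted p = 0.991, edgeR's quasi-likelihood test), and 0% of all 388 miRNAs passed. At an unadjusted p under 0.05, 0 of the 6 passed and 0.773% of all miRNAs did, which is 3 of 388. That background depended on cow 9615. Without this cow, 33 of 388 miRNAs passed the unadjusted threshold in edgeR's test, and 0 passed the adjusted one. DESeq2 with all cows also called 0 of the 6, and 0 of all 796 miRNAs. The interaction estimates, HOLS change minus MONT change, ran from -0.23 ± 0.27 (SE) for miR-362-5p to 0.13 ± 0.34 for miR-362-3p, and that of miR-500, given as a description, was -0.22 ± 0.33. The standard errors of the 7 estimates, 0.24 to 0.37, were as large as many of the changes in either breed.

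Between the breeds, all 7 members had a higher fitted level in HOLS than in MONT in both periods, although miR-532 in CONT was at -0.0043 when libraries were scaled by size alone. Of all miRNAs tested, 51.7% in CONT and 52.6% in REST were lower in HOLS. The paper describes the MONT libraries as lower in quality, with more short reads and adapters, so breed and library quality cannot be told apart in these comparisons. In CONT the log2 fold changes of HOLS over MONT ran from 0.01 for miR-532 to 0.87 for miR-362-5p with a median of 0.15, beside -0.01 for all 360 miRNAs tested. Of the 6 members other than miR-500, 0 passed the adjusted threshold (edgeR's quasi-likelihood test, adjusted p from 0.0609 to 0.981), against 0.556% of all miRNAs, and 1 passed an unadjusted p under 0.05, against 20.3% of all. That 1 was miR-362-5p, at 0.87 ± 0.21 on the log2 scale (adjusted p = 0.0609). miR-500, selected on a high level in these HOLS CONT libraries against REST, was at 0.64 ± 0.22, as a description.

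The HOLS CONT libraries held 10.5 to 17.2 CPM of miR-362-5p and the MONT CONT libraries 6.33 to 11.1 CPM, and only the MONT library of cow 2614 reached into the range of HOLS. For miR-500 the ranges were 12.4 to 15.2 and 6.53 to 14.6 CPM, and again the library of cow 2614 alone overlapped. Without cow 2614, miR-362-5p was called at 1.02 ± 0.18 (edgeR, adjusted p = 0.0229), 1 of 6, where 1.71% of all miRNAs were called, and miR-500 was at 0.84 ± 0.16, untested. DESeq2 on all cows also called miR-362-5p alone (adjusted p = 0.00443), 1 of 6, where 3.97% of all miRNAs were called.

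In REST, miR-362-5p was higher in HOLS with a log2 fold change of 0.69 ± 0.19, a fold of 1.62, and an adjusted p of 0.0276 by edgeR's quasi-likelihood test. That made 1 call among 6 members, where 15.3% of all miRNAs were called. At an unadjusted p under 0.05 it was 1 of 6 too, against 33.1% of all miRNAs. The HOLS REST libraries held 6.47 to 12.0 CPM of miR-362-5p and the MONT REST libraries 5.31 to 7.55 CPM, and the overlap came from HOLS cow 2182. The call was lost when any 1 of the cows 1165, 1613, 1652, 5663, 8200 or 9195 was left out, with adjusted p between 0.0512 and 0.0799 and log2 fold changes between 0.62 and 0.68, and it was also lost without TMM scaling (adjusted p = 0.0961) and without the filter on low counts (adjusted p = 0.0561). miR-500 was at 0.47 ± 0.24, as a description, and the other 5 members lay between 0.19 and 0.33 with adjusted p from 0.202 to 0.437.

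The arms of miR-362 were also set against each other, as a description. The 5′ arm made up 49.6 ± 5.86% (SD, n = 5) of the counts of both arms in HOLS CONT and 45.6 ± 5.37% in HOLS REST. In MONT it made up 37.7 ± 7.50% (n = 6) in CONT and 40.1 ± 6.24% in REST. The ranges overlapped, with 43.6% to 57.5% in HOLS CONT and 31.7% to 50.5% in MONT CONT, and the share was not tested. miR-362-3p itself differed between breeds by 0.14 ± 0.27 in CONT (adjusted p = 0.794) and by 0.33 ± 0.19 in REST (adjusted p = 0.224).

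Markers of cell types were summed in each group as well, as a description without a test. The summed CPM of the 9 epithelial miRNAs was lower in MONT by its median, 43826 in HOLS CONT and 28848 in MONT CONT, and 43532 and 25632 in REST. The sum did not stand for each of them. In CONT the log2 fold change of HOLS over MONT was 0.72 for miR-141 and 0.60 for miR-200c. It was -0.39 for miR-205 and -0.07 for miR-182, and from 0.02 to 0.31 for the others. In HOLS, REST over CONT ran from -0.55 for miR-200b and -0.42 for miR-200c to 0.10 for miR-205. It lay between 38937 and 50962 in HOLS CONT and between 20305 and 51630 in MONT CONT, and between 26981 and 57661 in HOLS REST and 14722 and 36498 in MONT REST. The 7 leukocyte miRNAs summed to 2257 to 3734 CPM in HOLS CONT, 2402 to 5661 in HOLS REST, 2527 to 8450 in MONT CONT and 2876 to 6406 in MONT REST, and the 3 red cell miRNAs to 2360 to 4022, 3474 to 4223, 2317 to 5429 and 1124 to 4538 CPM. The median of the red cell sum was 2997 CPM in HOLS CONT and 4092 in HOLS REST, and 3287 in MONT CONT and 3097 in MONT REST. Its miRNAs did not move together in HOLS. The log2 fold change of REST over CONT was 0.39 for miR-486, but -0.12 for miR-451 and -0.09 for miR-144. In MONT it was -0.19 for miR-486, -1.13 for miR-451 and -0.75 for miR-144, so the sum did not stand for each of them there either. The sum of the 2 endothelial miRNAs in HOLS lay between 23974 and 33573 CPM (median 27540) in CONT and between 28873 and 41791 (median 31982) in REST. In MONT it lay between 24307 and 30710 CPM (median 26768) in CONT and between 17237 and 32089 (median 28445) in REST. The 3 muscle miRNAs summed to between 37.1 and 186.8 CPM. No defining miRNA of these lists was at 0 in a library. The part of cell composition in the values of the cluster was not tested.

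The summed level of the 8 members, of which miR-660 is the bulk, was 3505 ± 482 CPM (SD, n = 5) in HOLS CONT, 3161 ± 799 (n = 6) in MONT CONT, 2924 ± 239 in HOLS REST and 2526 ± 438 in MONT REST. Neighbouring groups in this order differed by less than the larger of their SDs. The order of miR-500 was the same, with 14.0, 8.86, 8.05 and 5.98 CPM, and there the step from HOLS CONT to MONT CONT exceeded the SD of either group. The ratio of miR-660 to miR-532 stayed narrow, at 7.20 to 8.08 in HOLS CONT, 6.86 to 7.65 in HOLS REST, 5.92 to 8.07 in MONT CONT and 6.35 to 7.38 in MONT REST.

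Across the 22 libraries, centred within breed on the log2(CPM + 1) scale, the members fell into groups by their Pearson correlations. miR-532 and miR-660 had the highest r of the 21 pairs, 0.941, and with miR-502a and miR-362-3p they formed 6 pairs with r from 0.671 to 0.941. miR-500, miR-362-5p and miR-188 formed 3 pairs with r from 0.803 to 0.821. The 12 pairs between these sets had r from 0.239 to 0.606. Over all 75078 pairs of the 388 miRNAs that passed the filter, the median r was 0.00410 and the quartiles were -0.275 and 0.293. These values are descriptions, since the libraries of a cow are paired, the members share the scaling of each library, both periods enter, and the sets were seen in the correlations themselves.

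The split was looked at in other ways that were chosen after seeing the data. Centred within breed and period, which removes the common shift of REST, r was 0.598 to 0.934 within the first set, 0.673 to 0.745 within the second and -0.00457 to 0.515 between them. Without cows 2614 and 9615 (18 libraries), r was 0.497 to 0.958, 0.769 to 0.804 and 0.215 to 0.673 in turn, so that the ranges then overlapped. The arms of miR-362, cut from 1 hairpin, stood in different sets with an r of 0.544.

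**Figure D4:**
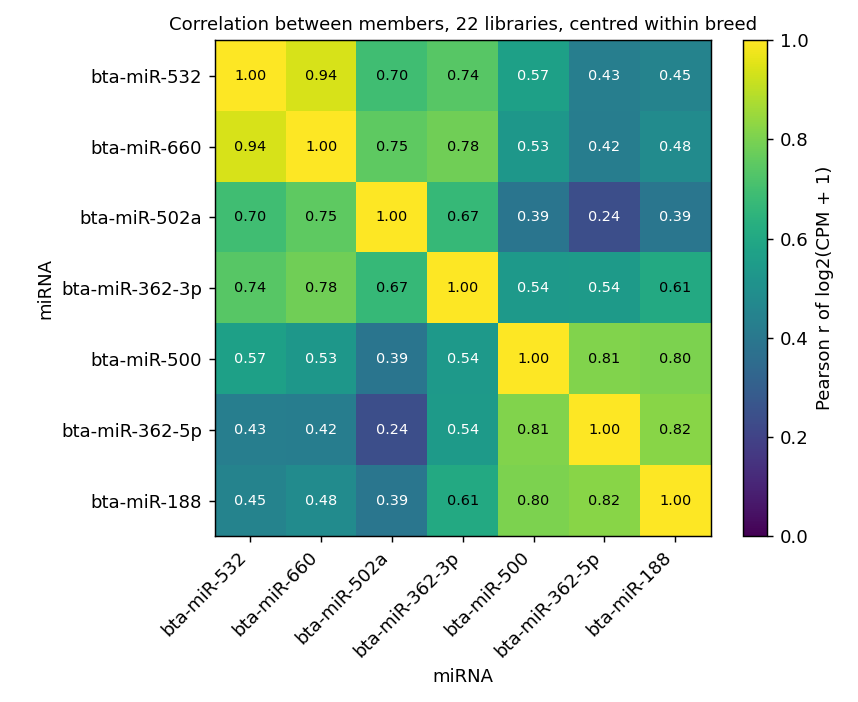
Pearson r of log2(CPM + 1) between the 7 members that passed the filter, over 22 libraries centred within breed, on a colour scale from 0 to 1 with each value printed. miR-532, miR-660, miR-502a and miR-362-3p (r from 0.671 to 0.941) and miR-500, miR-362-5p and miR-188 (r from 0.803 to 0.821) form blocks, and pairs between the blocks have r from 0.239 to 0.606.

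Against all 387 other miRNAs that passed the filter, miR-362-5p was the third and miR-188 the fourth most like miR-500 by r (0.811 and 0.803). miR-532 ranked 43 with an r of 0.567, miR-362-3p 51 with 0.538, miR-660 53 with 0.531 and miR-502a 98 with 0.389. The 5 miRNAs outside the cluster most like miR-500 were miR-29d-5p (r = 0.842), miR-669 (0.823), miR-671 (0.798), miR-193a (0.792) and miR-193a-3p (0.785). All but miR-193a are on the list that miR-500 was selected on, drawn from the same HOLS libraries, so their likeness is not independent of that choice. With both breed and period centred, r of miR-362-5p with miR-500 was 0.713 and of miR-188 0.673, at ranks 7 and 10. By Spearman's rank correlation, centred within breed, the values were 0.634 and 0.696, at ranks 24 and 14, so the high places of both depended on the measure. Of those 5 outside the cluster, only miR-669 was still among the first 5 with breed and period centred.

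The 55 other rows that share a name stem with the cluster or whose genes all lie on the X chromosome gave the surroundings. In HOLS, 17 of the 36 tested were lower in REST, with a median log2 fold change of 0.06, against 46.5% of all miRNAs. In MONT it was 17 of 34, with a median of -0.01, against 51.0% of all. edgeR's test called 0 in either, where 2.41% and 0% of all miRNAs were called. At an unadjusted p under 0.05 there were 9 and 3, against 23.3% and 13.5% of all. DESeq2 called 4 of the listed rows in HOLS, which are miR-18b, miR-222, miR-2483-5p and miR-374b, and 0 in MONT. Over all miRNAs it called 26 of 476 in HOLS and 0 of 759 in MONT. In the interaction edgeR called 0 of 37, with 0 at an unadjusted p under 0.05, and DESeq2 called 0. Between breeds in CONT edgeR called 0 of 34, against 0.556% of all miRNAs, with 4 at an unadjusted p under 0.05, against 20.3%. DESeq2 called 2, miR-504 and miR-1911, where 3.97% of all miRNAs were called. In REST edgeR called 4 of 36 between breeds, where 15.3% of all miRNAs were called. At an unadjusted p under 0.05 there were 10, against 33.1% of all. DESeq2 called 7, and 83 of 481 over all miRNAs. The 4 calls of edgeR are named without being read as a trait of these rows. miR-1298 was higher in HOLS (log2 fold change 2.51, adjusted p = 0.0135), and the cotranscribed pair miR-221 (-0.83, 0.0115) and miR-222 (-0.73, 0.0267) and miR-504 (-1.23, 0.0178) were lower in HOLS. The 4 rows that DESeq2 called in HOLS are on the study's list drawn from the same libraries, and are not independent of it.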

How the data were processed

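Mammary miRNA counts of 22 libraries were analysed, and 2 samples of the labels, of 1 HOLS cow that the study excluded, had no column and were not analysed here. According to the study's methods, libraries were made with the TruSeq small RNA kit and sequenced single-end on an Illumina HiSeq, adapters were clipped with FASTX-Toolkit, and reads were size filtered and quantified with ncPRO-seq and miRDeep2 (btau5.0.1, miRBase). The submitters' processing notes name bcl2fastq 2.17.1.14 and DESeq2 1.18.1. The deposited values used here are the authors' raw read counts per mature miRNA, in 1 table per breed. The 22 columns of normalized counts and the authors' own comparison columns (mean, fold change, p and adjusted p) were not used.

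Counts were joined by miRNA name, scaled with TMM, filtered with filterByExpr (minimum count 10) and fitted with edgeR 4.0.16 (limma 3.58.1, R 4.3.3), using quasi-likelihood F tests within breed (REST against CONT), of the breed by period term, and of breed within period, with Benjamini-Hochberg adjustment over all miRNAs tested and a threshold of 0.05. No block is named for the miRNA tests in the paper, and the reported fits have none. Samples are nevertheless paired by cow per the labels (r of deviations in the report), and the blocked value stands beside the 1 call it changed. The ratio of miR-500 to each member used log2 of (count + 1) and exact permutation (scipy 1.17.1). Correlations used log2(CPM + 1). DESeq2 1.42.0, its size factors, library size scaling alone, no filter, the cow block and leaving out each cow were the alternatives. DESeq2 with the cow block and fits without cows 2614 and 9615 were added after seeing the data. The scripts were tested on simulated counts. No 2 libraries were identical. Each library is 1 biopsy of 1 cow, and the totals, of 6087865 to 18913916 counts, leave counting error as a limit for members with few counts.

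All 8 members were described. miR-500 was planned to be tested between breeds too, but as it was selected on the HOLS libraries those values are given without a test. Members, gene lists and tests were chosen with earlier results of these data known. Other named miRNAs were the 5 outside the cluster most like miR-500 and those called among the 55 X-linked or like-named rows. RefSeq (ARS-UCD2.0) matched 763 of 796 names and gave gene order and chromosome only. Sequences are not printed.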

Additional observations from a re-analysis of the deposited data

Results flagged for a closer look

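In each group of 5 or 6 libraries the highest and the lowest level of each member were compared with the rest, and 4 of 32 groups held a library set apart by Dixon's test, where chance gives about 1.6. In MONT CONT, miR-502b had 1.89 CPM in cow 5663 against 0.0836 to 0.426 in the other 5 cows, which rests on 11 counts. Cow 2614 stood above the other MONT CONT cows for miR-362-5p, with 11.1 CPM against 6.33 to 7.44, and for miR-188, with 5.73 against 2.31 to 3.48. In HOLS REST, miR-188 had 1.55 CPM in cow 2182 against 2.86 to 3.32. The cause was not tested for any of these.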

How the results depend on the processing

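In HOLS the count of members called was 0 in all alternatives other than the cow block, which called 1, and was 0 when each cow was left out. In MONT it was 0 to 2 over the cows left out, 2 without cow 9615, and 0 otherwise. Over all miRNAs, 46 of 358 were called without cow 9615, and 0 in the other MONT fits. In the interaction it was 0 throughout, as it was over all miRNAs. Between breeds in CONT it was 1 with DESeq2, 1 without cows 2614 and 9615 together, and 0 to 1 over single cows left out (1 without cow 2614). Over all miRNAs, DESeq2 called 20 of 504 and the fit without both cows 6 of 365. The fits without a single cow called 0 to 6, with 6 of 350 without cow 2614. In REST it was 0 with library size alone, 0 with no filter and 0 to 1 over single cows. Over all miRNAs these fits called 54 of 378, 55 of 761 and 38 to 77 in turn. The pairing by cow changed no other call of a member, and adjusted p in MONT with the block was at least 0.292. Directions that turned belonged to values near 0. With single cows left out, the interaction ran from -0.197 to 0.0380 for miR-188, from -0.0451 to 0.336 for miR-502a, from -0.0185 to 0.386 for miR-362-3p and from -0.0095 to 0.236 for miR-660. The CONT breed contrast of miR-532 ran from -0.0953 to 0.129, and was -0.0043 with library size alone, and that of miR-362-3p ran from -0.0327 to 0.260. The MONT ratio of miR-500 ran from -0.189 to 0.0248 against miR-502a and from -0.148 to 0.0214 against miR-188. The median r of the members with miR-500 was 0.553, and 0.457 with period centred too. Library size alone moved the median of all miRNAs to -0.15 both in HOLS and between breeds in REST, where calls higher in HOLS went from 21 of 58 to 13 of 54. The cause was not tested for any of these. In the alternatives run, all 7 members stayed lower in REST in both breeds.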
